A study of Mus musculus with 4 samples.

Results

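Natural killer (NK) cells of the injured mouse spinal cord at 14 days post injury (dpi) are described here. They were selected on measured values, as cells of the 14 dpi library with a UMI of at least 3 of the 7 genes Ncr1, Klrb1c, Klre1, Gzma, Prf1, Eomes and Il2rb and none of Cd3e, Cd3d, Cd3g, Trdc, Cd79a, Csf1r or Csf3r. A UMI, or unique molecular identifier, stands for 1 captured RNA molecule. Cells with Itgam were kept. The rule found 182 NK cells among the 10879 cells of the library that passed a filter on quality (600 genes or more, mitochondrial UMIs up to 10%), and 28346 cells passed it in all 4 libraries. Levels of the rule's own genes are therefore given as a description only.

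The study sequenced CD45+ cells, sorted by flow cytometry from the spinal cord, with the 10x Chromium method in 4 libraries, 1 per condition. The mice were C57BL/6 animals of both sexes, 3 months old. Injured mice received a moderate contusion of the cord at T10 by Allen's method and were killed at 3 or 14 dpi, and sham mice received a laminectomy without contusion. The cells of 1 sham library were dissociated in the standard way, and those of the other sham library, of the 3 dpi library and of the 14 dpi library with actinomycin D (ActD), a transcription inhibitor that limits gene induction during dissociation. The methods divide the mice of both sexes among control, 3 dpi and 14 dpi groups, and which mice went into each of the 4 libraries is not given in the sources used here. With 1 library per condition there are no replicates, so no test was made and no difference could be set against a spread between mice. All intervals are exact 95% intervals that cover counting error only.

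NK cells are innate lymphocytes that kill infected, transformed or stressed cells with the pore-forming protein perforin and with granzymes, and that secrete interferon-γ and chemokines. Receptors of the Ly49 (Klra), NKG2 (Klrc, Klrd1 and Klrk1) and NKR-P1 (Klrb1) families set the balance between killing and tolerance, and they signal through adapters such as Tyrobp and Fcer1g. In mice, NK cells mature from a stage with CD27 to a stage with CD11b (Itgam), and the last stage also carries Klrg1. T-bet and Eomes, which are T-box factors, and Runx3 regulate this programme.

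Promoters of 4 genes on which the results turn are shown, that of Ncr1, which encodes the receptor NKp46, and those of Gzma, Gzmb and S1pr5. Ncr1 (ENSMUSG00000062524, chromosome 7, 4337724 to 4345164) and Gzma (ENSMUSG00000023132, chromosome 13, 113093825 to 113100981) helped to choose the cells. Gzmb (ENSMUSG00000015437, chromosome 14, 56258838 to 56262260) and S1pr5 (ENSMUSG00000045087, chromosome 9, 21242912 to 21248443) differed between the maturation classes. These gene positions are those of GENCODE vM21 on GRCm38. Each runs 5′ to 3′ on the strand of the gene, from 250 bases before to 50 bases after the start of the RefSeq gene in GRCm38.p6. Capitals mark AGGTGT, a T-box core, or TGTGGT, a Runx core, and their reverse complements ACACCT and ACCACA.
Ncr1 (chr7:4337465-4337764, + strand): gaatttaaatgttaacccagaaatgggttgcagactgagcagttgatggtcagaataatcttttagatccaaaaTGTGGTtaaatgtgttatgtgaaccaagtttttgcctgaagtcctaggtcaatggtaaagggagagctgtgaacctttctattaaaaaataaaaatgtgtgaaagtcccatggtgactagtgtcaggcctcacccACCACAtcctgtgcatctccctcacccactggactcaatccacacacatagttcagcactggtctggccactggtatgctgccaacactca
Gzma (chr13:113100932-113101231, - strand): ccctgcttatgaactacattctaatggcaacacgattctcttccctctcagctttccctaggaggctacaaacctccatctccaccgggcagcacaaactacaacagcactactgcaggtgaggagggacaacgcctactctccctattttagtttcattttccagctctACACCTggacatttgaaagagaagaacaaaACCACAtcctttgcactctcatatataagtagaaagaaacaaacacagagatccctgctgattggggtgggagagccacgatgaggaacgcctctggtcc
Gzmb (chr14:56262285-56262584, - strand): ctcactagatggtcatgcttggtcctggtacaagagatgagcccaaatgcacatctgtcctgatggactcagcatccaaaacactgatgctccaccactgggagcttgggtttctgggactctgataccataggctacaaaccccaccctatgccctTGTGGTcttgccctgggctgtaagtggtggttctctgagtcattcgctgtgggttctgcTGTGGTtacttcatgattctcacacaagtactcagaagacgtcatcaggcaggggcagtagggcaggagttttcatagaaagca
S1pr5 (chr9:21248394-21248693, - strand): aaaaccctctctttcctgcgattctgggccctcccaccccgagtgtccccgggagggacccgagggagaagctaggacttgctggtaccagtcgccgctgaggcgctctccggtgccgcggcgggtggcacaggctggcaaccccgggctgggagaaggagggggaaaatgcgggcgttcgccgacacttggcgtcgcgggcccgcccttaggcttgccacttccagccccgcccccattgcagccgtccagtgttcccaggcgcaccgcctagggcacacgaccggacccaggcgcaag
The Ncr1 window held 2 Runx cores, the Gzma window 1 T-box and 1 Runx core, the Gzmb window 2 Runx cores and the S1pr5 window neither motif. Of 32851 promoter windows of this length, 13.7% held the T-box core and 16.8% the Runx core. Of the 12 mature NK genes matched to RefSeq, none held the T-box core and 5 held the Runx core (Cma1, Cx3cr1, Gzmb, Itgax and Ly6c2). Of the 10 immature NK genes matched, 2 held the T-box core (Emb and Ltb) and 3 the Runx core (Cxcr3, Il7r and Xcl1). These matches describe the letters in the windows and no binding was measured.

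The NK cells carried the defining transcripts together. Of the 182 cells, 66 had all 7 genes of the rule, 72 had 6, 22 had 5, 9 had 4 and 13 had 3. Gzma, which encodes granzyme A, was found in 150 cells with a median of 31.5 UMIs per cell and a range from 0 to 170. Ncr1 was found in 165 cells (median 3 UMIs, range 0 to 19) and Klrb1c, which encodes NK1.1, in 169 cells (median 3, range 0 to 12). Eomes was found in 97 cells and had the lowest median of the 7, at 1 UMI and a range from 0 to 5. Among genes that the rule did not use, Fcer1g was found in all 182 cells (median 11 UMIs, range 2 to 65), Nkg7, a granule membrane protein, in 180 and the signalling adapter Tyrobp in 179. Their total was 932173 UMIs, with a median of 4391.5 UMIs per cell and a range from 1021 to 19648.

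The cells at the edge of the rule hold few of its genes by construction, and their values are given as a description. The 13 NK cells with 3 of the 7 genes had Il2rb in 12 and Klrb1c in 10 cells, Gzma in 2 and Eomes in none. Just outside, 6 otherwise eligible cells with 2 of the 7 genes had Il2rb in 6, Ncr1 in 3, Klrb1c in 2 and neither Gzma nor Eomes. Nkg7 was found in 12 of the 13 and in 5 of the 6.

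The genes that the rule excludes removed more cells than the rule kept. In all, 594 cells had at least 3 of the 7 genes, of which 207 had a Cd3 gene and 205 had no Cd3 gene but Trdc, Cd79a, Csf1r or Csf3r. Trdc, the constant region of the T cell receptor δ chain, was the only excluded gene in 59 cells. These cells had Ncr1 in 83.1%, Klrb1c in 91.5% and Gzma in 74.6%, and their Gzma level was 5891 CPM, that is, UMIs of the gene scaled to a common total per group of cells. None had a UMI of Il17a, Cd163l1 or Tcrg-C1, and Trac was found in 1. Cells with Csf1r or Csf3r and no Cd3, 145 in number, had a median of 7980 UMIs, and 64 of them (44.1%) were among the cells with the highest doublet scores, against 2 of the 182 NK cells (1.10%) and 8.70% of the library. Genes of microglia, monocytes, macrophages and neutrophils summed to a median of 17893 CPM in these cells and 6213 CPM in the NK cells.

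The library was also clustered without the rule, which gave 29 clusters. Of the 182 NK cells, 176 (96.7%) lay in 1 cluster of 356 cells, which Serpinb9b, Khdc1a, Ncr1, Klra9 and Gzma led. The same cluster held 56 of the 59 cells with Trdc alone, 87 of the 145 cells with Csf1r or Csf3r and no Cd3, 28 cells with a Cd3 gene and 1 of the 209 CD8 T cells. Another 4 NK cells lay in a cluster of 111 cells led by cell cycle genes such as Cenpf. The rule thus took a part of the cells of this cluster, of which 328 had no Cd3 gene.

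**Figure D1:**
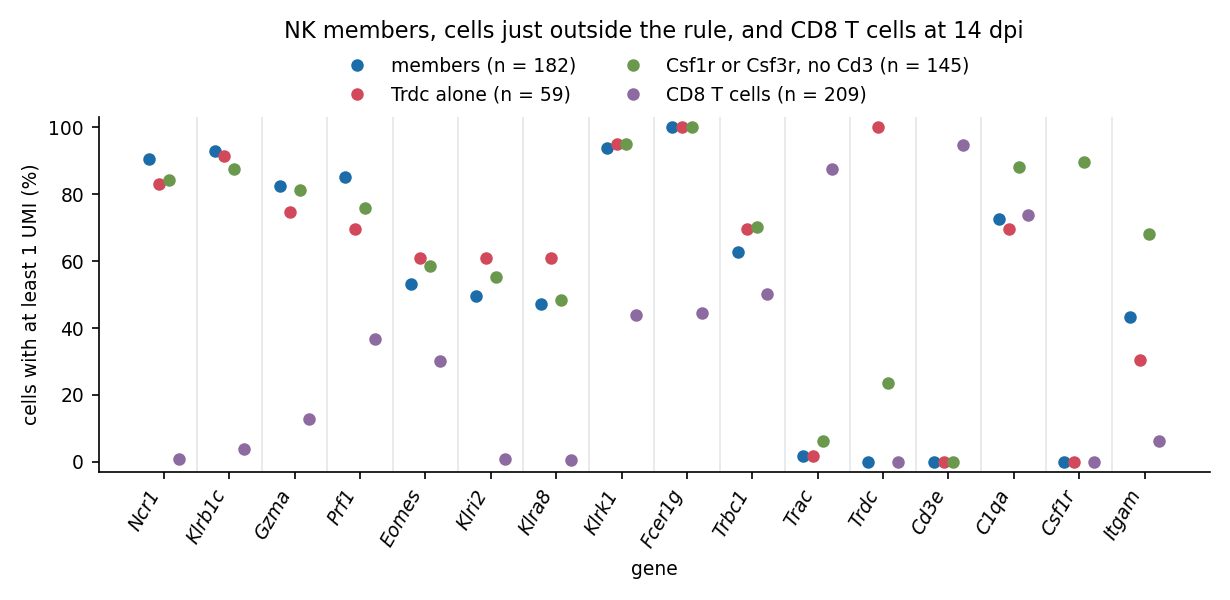
Cells around the rule at 14 dpi, with the share of cells that had a UMI (percent) for genes chosen after their values were seen, in the NK cells (called members), in cells whose only excluded gene was Trdc, in cells with Csf1r or Csf3r and no Cd3, and in CD8 T cells. Ncr1, Klrb1c, Gzma, Prf1 and Eomes helped to choose the NK cells and the first 2 groups outside the rule, so their likeness there is no result, and Fcer1g was found in all 182 NK cells.

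NK cells were most frequent at 14 dpi. They numbered 6 of 5736 cells in the standard sham library (0.105%, interval 0.0384 to 0.228%), 2 of 2203 in the ActD sham library (0.0908%, 0.0110 to 0.328%), 19 of 9528 at 3 dpi (0.199%, 0.120 to 0.311%) and 182 of 10879 at 14 dpi (1.67%, 1.44 to 1.93%). The intervals of the first 3 libraries overlapped one another, and that of 14 dpi lay above them. The share at 14 dpi was 8.39-fold that at 3 dpi (5.22 to 14.3), and with a stricter cell filter, which left 11 NK cells at 3 dpi, it was 10.9-fold. CD8 T cells, taken by a UMI of a Cd3 gene and of Cd8a or Cd8b1 without Cd4, Trdc, Cd79a, Csf1r or Csf3r, made up 0.192%, 0.227%, 1.24% and 1.92% of these libraries. Median depth of the NK cells was 2714 UMIs at 3 dpi and 4391.5 at 14 dpi, and the part of depth in the number of cells that met the rule was not tested. Shares add up to the whole library and give no number of cells per cord. Of the 14 dpi barcodes, 23, 17 and 36 also occurred in the standard sham, ActD sham and 3 dpi libraries, 1 of them an NK cell, and no barcode was an NK cell in both.

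**Figure D2:**
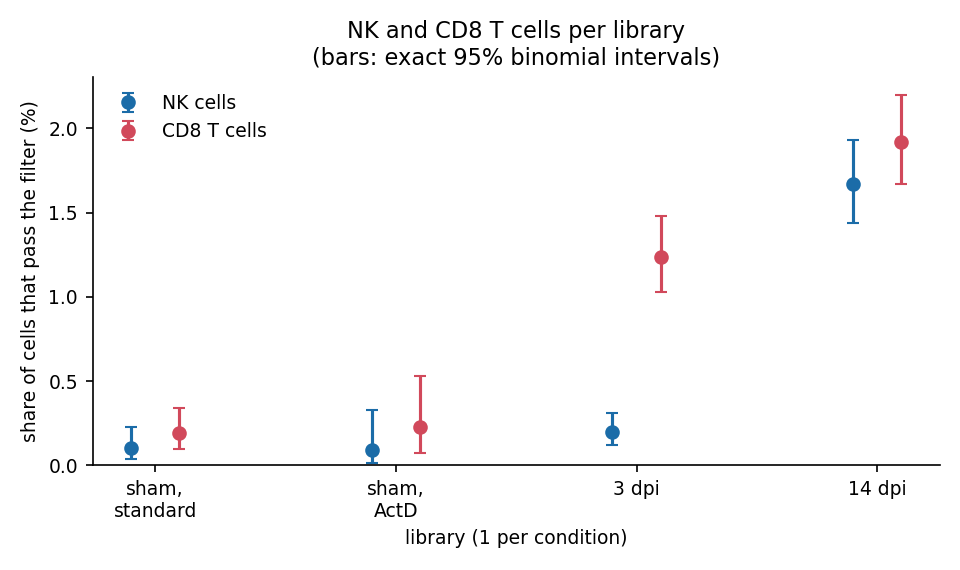
Share of NK cells and of CD8 T cells among the cells of each library that passed the filter, in percent, with exact 95% intervals. NK cells make up 0.0908% of the ActD sham library and 1.67% of the 14 dpi library.

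NK cells and CD8 T cells are both cytotoxic lymphocytes, and their comparison shows which parts of the programme differed in the same library. The 6 Ly49 genes with enough UMIs, the adapters Tyrobp and Fcer1g, Gzmb and Xcl1 were at least 2-fold higher in NK cells, and Lat, Cxcr6, Gzmk and 5 of 17 interferon response genes were at least 2-fold lower. UMIs of the 182 NK cells were set against those of the 209 CD8 T cells (1263226 UMIs, median 5610 per cell) over the 5197 genes with at least 50 UMIs in both together. At least 2-fold higher in NK cells were 289 genes (5.56%), and at least 2-fold lower were 165 (3.17%). The median log2 ratio over all 5197 genes was 0.15, and with TMM scaling, which brings it to -0.00, 221 genes were higher and 219 lower, so that the share of higher genes among these fell from 63.7% to 50.2%. A gene could reach 50 UMIs through the cell type where it is high alone, so the list counts describe the genes that passed and not the whole lists. All ratios below are of CPM in NK cells over CD8 T cells on the log2 scale.

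**Figure D3:**
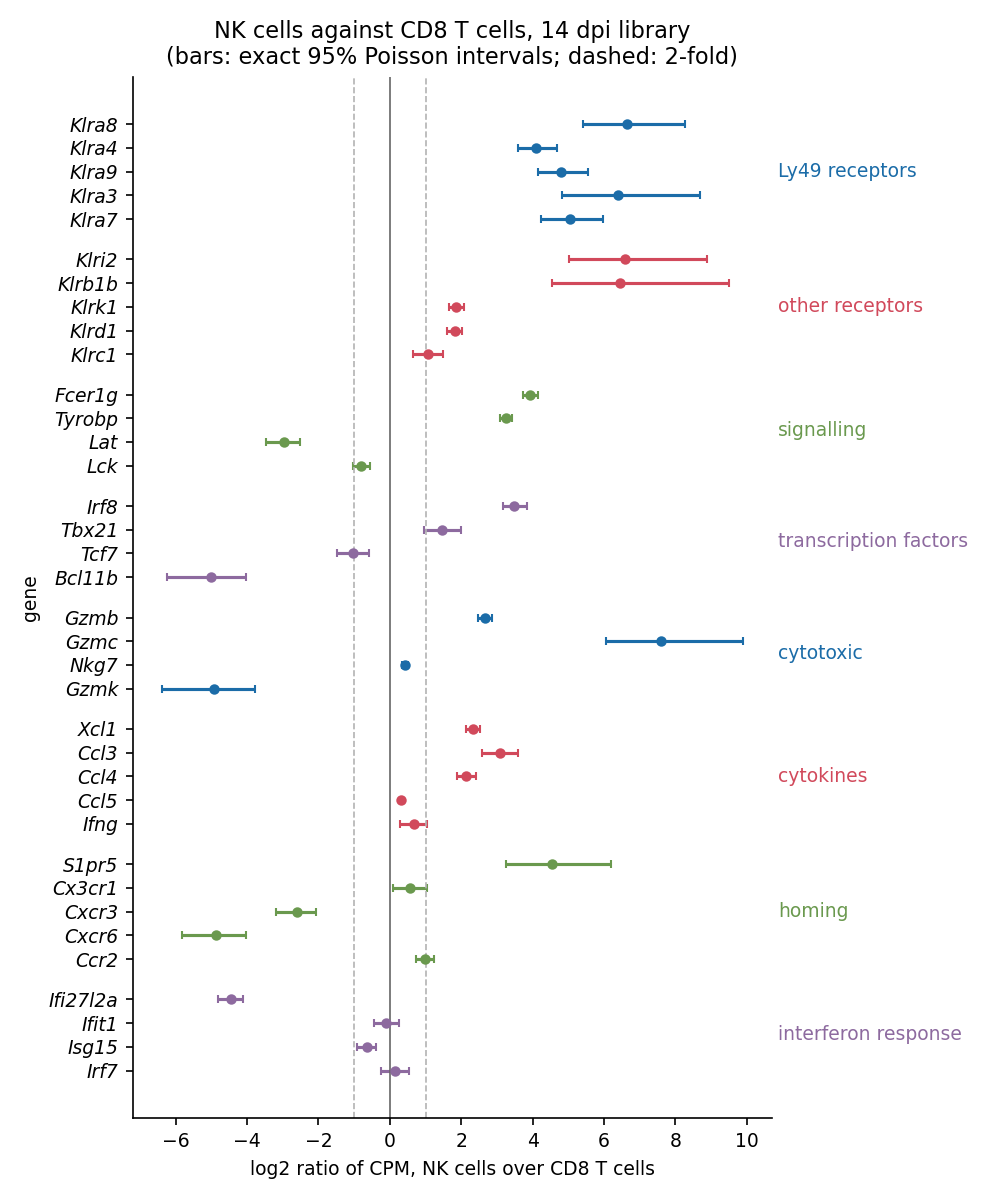
Log2 ratio of CPM in NK cells over CD8 T cells for genes chosen from the lists after their values were seen, with exact 95% intervals. Dashed lines mark 2-fold. The Ly49 genes lie to the right (Klra8 at 6.65), and Bcl11b, Gzmk, Cxcr6 and Ifi27l2a (-4.46) to the left.

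Of the Ly49 genes, 6 reached 50 UMIs, in each case through the NK cells, and their log2 ratios had a median of 4.92, which is a description and not set against the share of 5.56% of all genes. Of the 4 others in the matrix, Klra10 had 7 UMIs in NK cells and none in CD8 T cells, Klra17 had 3 and 3, Klra5 had 1 and none, and Klra6 had 7 and 14. All 10 together summed to 1950 CPM in NK cells and 79.2 CPM in CD8 T cells. Klra8, which encodes the activating receptor Ly49H, stood at 397 CPM in NK cells and 3.96 CPM in CD8 T cells, a log2 ratio of 6.65 (5.41 to 8.28). The inhibitory Klra3 (201 and 2.37 CPM), Klra7 (338 and 10.3 CPM), Klra9 (422 and 15.04 CPM) and Klra1 (137 and 8.71 CPM) showed the same direction, as did Klra4, which encodes the activating Ly49D (437 and 25.3 CPM). The genes of this family lie close together on chromosome 6 and are near-identical, so the division of UMIs among them is uncertain.

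The number of Ly49 genes found per NK cell varied. At least 1 of the Ly49 genes was found in 149 NK cells (81.9%), while 33 had none, 21 had 1, 44 had 2, 38 had 3, 33 had 4, 10 had 5 and 3 had 6. In CD8 T cells, B cells and microglia, which lack these receptors or carry them rarely, the shares were 7.66%, 6.58% and 3.51%, with median depths of 5610, 3542.5 and 8941 UMIs. The share in NK cells lay far above these.

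Of the 19 other NK receptors measured, 11 were at least 2-fold higher and 1 was lower, with a median log2 ratio of 1.63. Klri2 stood at 230 CPM in NK cells and 2.37 CPM in CD8 T cells (log2 ratio 6.59), Klrb1b at 137 and 1.58 CPM (6.44) and Cd244, which encodes 2B4, at 204 and 5.54 CPM (5.20). Klrk1 and Klrd1, which encode NKG2D and CD94, were found in both cell types, at 808 and 222 CPM for Klrk1 (log2 ratio 1.87) and 718 and 203 CPM for Klrd1 (1.82). Slamf6, a receptor of the SLAM family, was the lower one (log2 ratio -1.72).

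Of the 15 adapters and kinases, 5 were higher and 2 lower, with a median log2 ratio of -0.00, so the group was split, and Hcst, Cd247, Zap70, Fyn, Lck and Vav1 fell within 2-fold. The ITAM adapters Tyrobp (2624 and 276 CPM, log2 ratio 3.25) and Fcer1g (2376 and 155 CPM, 3.94) were higher in NK cells, as were the kinase Syk (2.23), Plcg2 (3.76) and Sh2d1b1, an adapter of SLAM receptors (6.14). Lat, an adapter below the T cell receptor, was among the lower ones (42.9 and 337 CPM, log2 ratio -2.97).

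Of 16 transcription factors, 5 were higher and 3 lower (median log2 ratio 0.24). The higher ones were Irf8 (765 and 68.1 CPM, log2 ratio 3.49), Zeb2 (2.63), Tbx21, which encodes T-bet (1.47), Klf2 (1.41) and Bhlhe40 (1.16). The lower ones were Bcl11b, a factor of T cell commitment (8.58 and 276 CPM, log2 ratio -5.01), Tcf7 (-1.03) and Rora (-1.03).

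Of 16 cytotoxic effector genes outside the rule, 5 were higher and 1 lower (median log2 ratio 0.41). Gzmb, which encodes granzyme B, stood at 1441 CPM in NK cells and 227 CPM in CD8 T cells, a log2 ratio of 2.66 (2.48 to 2.85), and it was found in 129 of 182 NK cells and 57 of 209 CD8 T cells. Serpinb9 and Serpinb6b, protease inhibitors that protect killer cells from their own granzymes, had log2 ratios of 2.67 and 2.37. Ctsc, which activates granzymes, had a ratio of 1.05, and of 0.90 in the alternative where it was lowest, which is within 2-fold. Gzmk was lower in NK cells (6.44 and 196 CPM, log2 ratio -4.92). Nkg7 was found at 2709 and 2023 CPM (log2 ratio 0.42). Gzmc had a log2 ratio of 7.60, but 1 of the 17 NK cells with it held 310 of 430 UMIs (72.1%), and without that cell the log2 ratio was 5.77.

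Of 8 cytokines and chemokines, 3 were higher and 1 lower. The chemokine Xcl1 stood at 1124 and 223 CPM (log2 ratio 2.33), Ccl3 at 274 and 32.5 CPM (3.08) and Ccl4 at 544 and 123 CPM (2.14). Ltb was lower (375 and 827 CPM, log2 ratio -1.14). Ccl5 (7647 and 6117 CPM, log2 ratio 0.32) and Ifng (0.66) fell within 2-fold. Of 13 cytokine receptor genes, 3 were higher and 2 lower, which were Il12rb2 (log2 ratio 2.81), Il18rap (2.05), Tgfbr1 (1.26), Il21r (-1.35) and Il7r (34.3 and 256 CPM, -2.90).

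Homing and adhesion genes divided evenly, with 4 of 22 higher and 4 lower (median log2 ratio 0.23). S1pr5, a sphingosine-1-phosphate receptor of NK cell egress, stood at 92.3 and 3.96 CPM (log2 ratio 4.54), Itga2, which encodes CD49b, at 166 and 6.33 CPM (4.71) and Itgax at a ratio of 1.98, and these were among the higher ones. Cxcr6 (12.9 and 374 CPM, -4.86), Cxcr3 (33.3 and 203 CPM, -2.61), Cd69 (-1.08) and S1pr1 (-1.04) were lower. Of the checkpoint genes, Pdcd1 had no UMI in NK cells and 59 in CD8 T cells.

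Of 17 interferon response genes, 5 were at least 2-fold lower in NK cells, none was higher and 12 fell within 2-fold, with a median log2 ratio of -0.48, against 3.17% of all genes lower. The 20 genes of the list, measured or not, summed to 2218 CPM in NK cells and 5341 CPM in CD8 T cells. Ifi27l2a (76.2 and 1678 CPM, log2 ratio -4.46) and Ly6a (19.3 and 768 CPM, -5.31) made up most of the difference between the sums, and Gbp2 (-1.64), Ifit3 (-1.50) and Isg20 (-1.09) were lower too. Under the alternatives Ifit3 ranged from -5.56 to -0.93 and Isg20 from -1.64 to -0.67, so both reached values within 2-fold. Isg15 (-0.65) and Ifit1 (-0.09) fell within 2-fold over all cells, but at log2 ratios of -3.39 and -3.38 in male cells alone. Of the 114 Ifit1 UMIs of NK cells, 5 cells held 91 (79.8%), and without the 2 cells with the most in each cell type its log2 ratio was -1.19.

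Among the 12 genes with the highest ratios were Nrgn, which encodes neurogranin (118 and 1.58 CPM, log2 ratio 6.22), Cma1, a chymase gene (217 and 3.17 CPM, 6.10), Tnfsf12 (5.53) and Sulf2 (5.36). Styk1 and Serpinb9b had 99 and 86 UMIs in NK cells and none in CD8 T cells. Set against a floor of 3 UMIs they were 44.7-fold and 38.8-fold higher. The exact intervals of their log2 ratios began at 5.16 and 4.95. The 12 lowest included Themis, a T cell receptor signalling gene (log2 ratio -7.04), Gm8369 (-5.99), Camk4 (-5.54), Ass1 (-5.44), Slfn1 (-5.33), Adam19 (-5.03) and Klk8 (-4.95), and Cd5, with no UMI in NK cells and 116 in CD8 T cells. In NK cells 7 of 8 measured T cell genes were at least 2-fold lower, Trac at 3.22 and 503 CPM (log2 ratio -7.29). Trbc1, a constant region of the T cell receptor β chain, stood at 267 and 696 CPM and was found in 62.6% of NK cells and 50.2% of CD8 T cells, so its share and its level gave no common order.

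Genes of other cells were read from the same pools. Microglial genes had no gene at least 2-fold different among 8 and summed to 1731 CPM in NK cells with Itgam, 1661 CPM in those without and 1732 CPM in CD8 T cells, against 45922 CPM in microglia. Neutrophil genes were at least 2-fold lower in NK cells in 3 of 6 measured and summed to 1167 CPM and 921 CPM in NK cells with and without Itgam and 5074 CPM in CD8 T cells, where 5 cells held 84.0% of the S100a8 UMIs. Dendritic cell genes were lower in 3 of 3 measured and summed to 81.5 and 259 CPM. The median S100a8 count per cell was 2 in both cell types. The part of RNA from other cells in the differences was not tested.

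NK cells of both sexes were present. With Xist or 4 Y-linked genes as the measure, 74.0% of NK cells with a call were female (65.7 to 81.3%), against 62.3% of CD8 T cells and 47.6% of all cells. With at least 2 UMIs asked for, the shares were 81.8% of NK cells, 80.7% of CD8 T cells and 60.6% of all cells, so the shares of NK and CD8 T cells were then close. Of the 80 listed or named genes that differed at least 2-fold, 40 could be measured in male cells and 67 in female cells, and all of these kept their direction. Past 2-fold again were 40 in male and 63 in female cells, and in female cells Tcf7 (-0.66), Rora (-0.93), Tbx21 (0.98) and Klrc1 (0.96) fell within 2-fold. Xcl1 had log2 ratios of 1.04 in male and 3.09 in female cells. Gzmb had log2 ratios of 4.25 in male and 2.48 in female cells, and Ly6a -6.56 and -6.32.

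Among the NK cells with a UMI of Cd27 or Itgam, those with Itgam alone were the most frequent. With each cell thinned at random to 1000 UMIs, 12 NK cells (6.59%, 3.45 to 11.2%) had Cd27 and no Itgam, 2 (1.10%) had both, 32 (17.6%, 12.3 to 23.9%) had Itgam and no Cd27, and 136 (74.7%) had neither, which at this depth does not show that they lack the transcripts. Without thinning these numbers were 32, 15, 64 and 71. Itgam was found in 18.7% of thinned NK cells, against 1.44% of CD8 T cells and 2.31% of B cells. Without thinning it was found in 43.4% of NK cells and 6.22% of CD8 T cells. Klrg1 was found in 13.2% of thinned NK cells and in 28.0% without thinning. Without thinning, Klrg1 was found in 53.1% of the cells with Itgam and no Cd27 and in 9.38% of those with Cd27 and no Itgam. After thinning, the shares were 7 of 32 (21.9%, 9.28 to 40.0%) and 2 of 12 (16.7%, 2.09 to 48.4%), which overlapped. The median depth of the class with Cd27 alone was 5335.5 UMIs and that of the class with Itgam alone 3859.5.

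Under the filter of the study, a cell is removed when it has Itgam and also Klrb1c or another lymphocyte marker. Of the 182 NK cells, 75 (41.2%, 34.0 to 48.7%) had Itgam and Klrb1c (9.89% after thinning), and they were 8.62% of the 870 cells in the library that met that filter. Without the cells that have both, 107 NK cells remain. Monocyte and macrophage genes summed to 4008 CPM (3801 to 4223) in NK cells with Itgam and 3409 CPM (3260 to 3562) in those without, and neutrophil genes to 1167 CPM (1057 to 1286) and 921 CPM (845 to 1003), so both were higher with Itgam beyond counting error. Their part in the result was not tested. None of the 79 cells with Itgam was among the cells with the highest doublet scores.

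The 64 cells with Itgam and no Cd27 were set against the 32 with Cd27 and no Itgam over 3621 genes with at least 20 UMIs in both together. At least 2-fold higher in the class with Itgam were 268 genes (7.4%), and at least 2-fold lower were 158 (4.36%), and the exact interval of the ratio left out equality for 204 and 116 of them. With Klrg1 in place of Itgam and Cd27, 5575 genes reached 20 UMIs, of which 316 were higher and 403 lower. Of the genes past 2-fold, 43.9% were then higher, against 62.9% between the Itgam and Cd27 classes. The median log2 ratios over all genes were 0.08 and 0.09. With TMM scaling, 228 of the 3621 genes of the Itgam and Cd27 classes were higher and 188 lower. Itgam and Cd27 made the classes and were left out. The ratios that follow are log2 ratios of the class with Itgam over that with Cd27. Mature NK genes were higher in 10 of 11 measured, with a median log2 ratio of 2.51, and immature NK genes lower in 5 of 8 (median -1.29). Genes of other cells also differed between the classes, with B cell genes lower in 2 of 4 measured (summed 202 CPM with Itgam and 400.1 CPM with Cd27) and neutrophil genes at 1288 and 873 CPM, where none of 4 measured differed 2-fold. Monocyte and macrophage genes summed to 3842 CPM with Itgam and 3210 CPM with Cd27, with 1 of 4 measured higher and 1 lower. Microglial genes summed to 1755 and 1760 CPM, with 1 of 7 measured lower and none higher. The part of RNA from other cells in these differences was not tested.

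Of 13 cytotoxic effector genes outside the rule, 3 were at least 2-fold higher in the class with Itgam and 2 lower (median log2 ratio 0.37). Of 8 cytokines and chemokines, 4 were higher and 1 lower. Gzma stood at 15885 CPM in the class with Itgam and 2333 CPM in that with Cd27 (log2 ratio 2.77, 2.63 to 2.90), and Gzmb at 2799 and 286 CPM (3.29, 2.92 to 3.68). Prf1, which encodes perforin, stood at 1845 and 341 CPM (log2 ratio 2.44). Gzmc, 1 of the 2 lower genes, had 54.5 and 391 CPM (log2 ratio -2.84), but 1 cell held 80 of its 86 UMIs in the class with Cd27 and 1 cell 12 of its 14 UMIs in the class with Itgam, so no direction is read from it. In the class with neither gene, Gzma stood at 6395 CPM and Gzmb at 1261 CPM, between the other classes. Cma1 (553 and 27.3 CPM, log2 ratio 4.34), Serpinb9b (183 and 4.55 CPM, 5.33), Klrg1 (288 and 18.2 CPM, 3.99) and S1pr5 (206 and 13.6 CPM, 3.92) showed the same order. The Serpinb9b ratio rests on 1 UMI in the class with Cd27, and at its lowest under the alternatives it was 1.71. Ccl5 (14507 and 2505 CPM, log2 ratio 2.53), Ccl3 (646 and 86.4 CPM, 2.90) and Ccl4 (2.45) were higher, while Xcl1 stood at 782 and 914 CPM (-0.22). It was found in 32.8% of the class with Itgam and 81.25% of that with Cd27, 2 cells held 127 of its 201 UMIs in the class with Itgam, and without the 2 cells with the most in each class its log2 ratio was -1.03. With Klrg1 in place of Itgam and Cd27 it was -3.52. Ly6c2 (3.41), Myo6 (4.17) and As3mt (3.30) were among the highest, and at their lowest under the alternatives they stood at 1.64, 1.77 and 2.19.

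Of the 8 immature NK genes measured, the 3 that were not 2-fold lower included Xcl1, a chemokine gene, at a log2 ratio of -0.22. The NK cells with Il7r were 8 of the 32 cells with Cd27 alone and 1 of the 64 with Itgam alone. Without them 24 and 63 cells were left, and 5 of 8 immature NK genes were lower (median log2 ratio -1.41) and 10 of 11 mature NK genes higher (median 3.39), with Gzmb at 3.45, Tcf7 at -3.09 and Emb at -2.65. Over all cells of the classes, Tcf7, which encodes the factor TCF-1, stood at 15.6 and 118 CPM (log2 ratio -2.92), Emb at 101 and 423 CPM (-2.06), Ctla2a at 214 and 705 CPM (-1.72), Ccr2 at 156 and 500 CPM (-1.68) and Ltb at 230 and 509 CPM (-1.15). Itga1, an integrin of tissue-resident innate cells, had a ratio of -2.18 and Thy1 one of -1.44. Eomes was close in both classes (175 and 191 CPM, log2 ratio -0.12, interval -0.76 to 0.52), and Ncr1 (876 and 450 CPM, 0.96) fell within 2-fold. The lowest genes of all were cell cycle genes, Hist1h1b (log2 ratio -5.78), Ube2c, Birc5, Hist1h2ab, Hells, Hist1h2ae, Nusap1 and Kif11. In the class with Cd27, 2 cells held all 141 UMIs of Hist1h1b. Proliferation genes were lower in 7 of 12 measured (median log2 ratio -1.83), but without the 4 cycling cells among the 32, of the 6 measured 2 were higher and none lower (median 0.46). Without these cells, 10 of 11 mature NK genes were still higher and 5 of 8 immature NK genes lower.

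**Figure D4:**
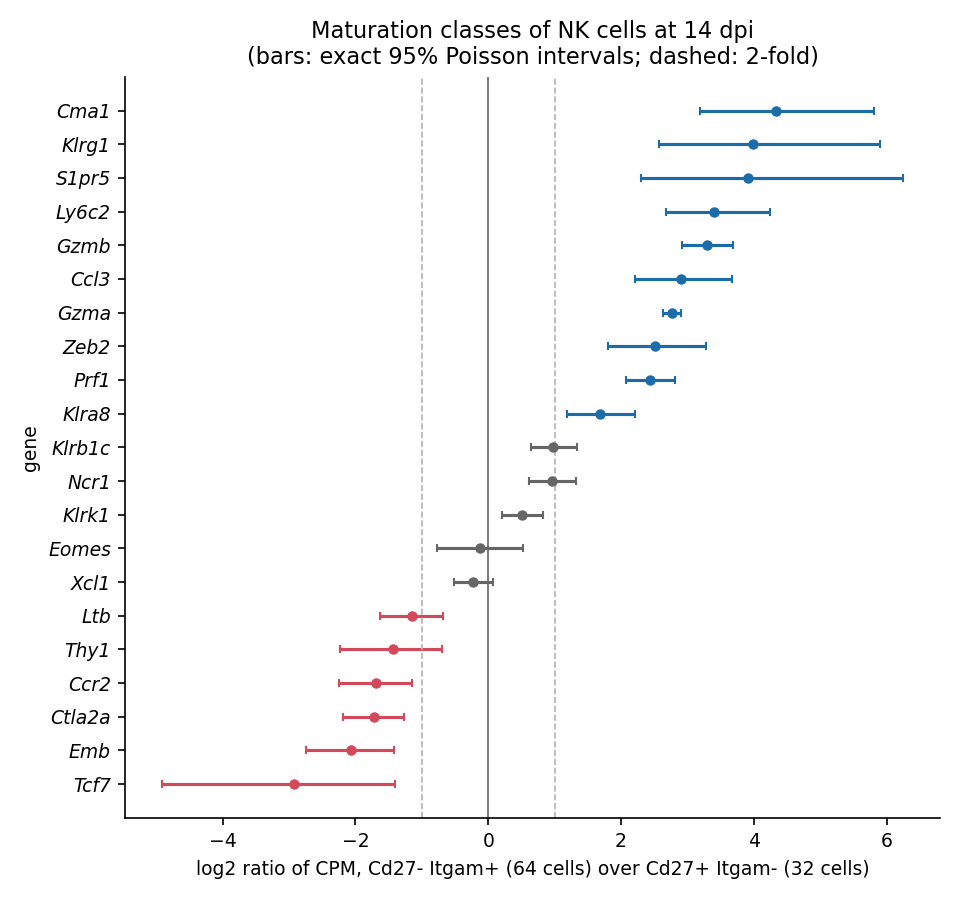
Log2 ratio of CPM in the 64 NK cells with Itgam and no Cd27 over the 32 with Cd27 and no Itgam, for genes chosen after their values were seen, with exact 95% intervals and dashed lines at 2-fold. Cma1 (4.34), Klrg1 and S1pr5 lie at the top, Eomes near 0 and Tcf7 (-2.92) at the bottom.

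Cycling cells were rare. At least 3 of 8 cell cycle genes were found in 8 of the 182 NK cells (4.40%, 1.92 to 8.48%), 13 of the 209 CD8 T cells (6.22%) and 85 of the 304 B cells (28.0%).

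Il7r, which encodes the interleukin-7 receptor and is carried by innate lymphoid cells other than mature NK cells, was found in 15 of the 182 NK cells (8.24%, 4.69 to 13.2%), and after thinning in 2.20%. These 15 cells (median 5277 UMIs, against 4353 in the others) had less Gzma. Gzma was found in 4 of 15, against 146 of the 167 without Il7r (407 and 8995 CPM), and Eomes in 3 of 15 and 94 of 167. S1pr5 and Cma1 were found in none of the 15 and in 56 and 64 of the 167. Ltb was found in 15 of 15 and 56 of 167, Tmem176b in 12 and 23, Rora in 7 and 7 and Itga1 in 7 and 34. Ncr1 was found in 14 of 15 and 151 of 167. Gzma, Eomes and Ncr1 helped to choose the cells, so their counts are a description only. Il1rl1 and Areg had no UMI in the 15.

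**Figure D5:**
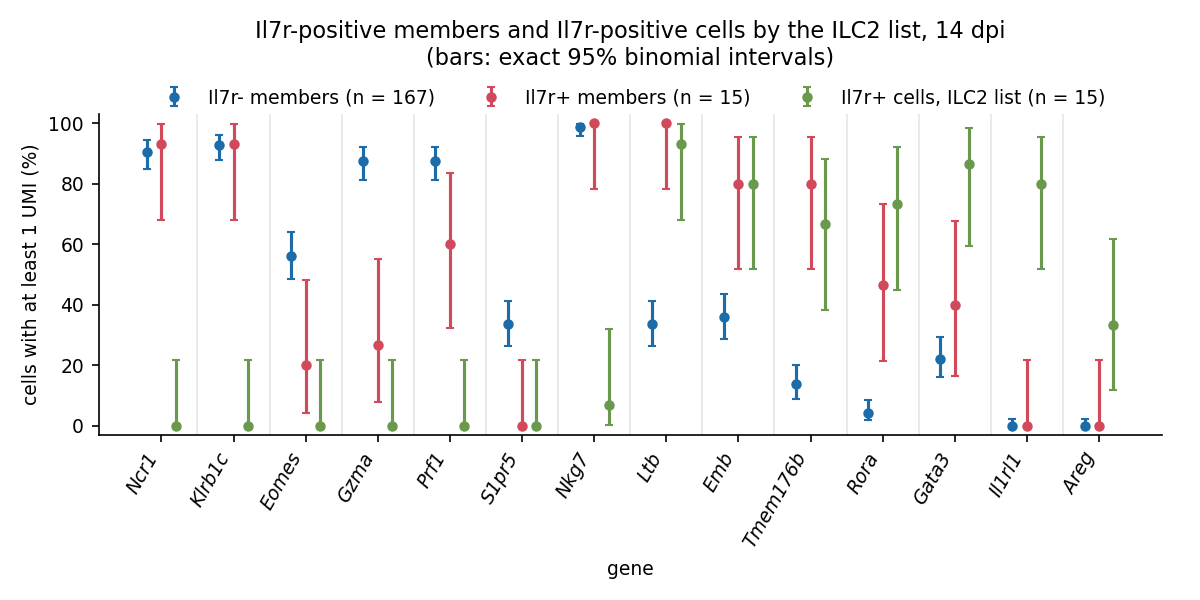
Share of cells with a UMI (percent) for genes chosen after their values were seen, in NK cells (called members) without and with Il7r and in the Il7r-positive cells of the ILC2 list, with exact 95% intervals. Of the NK cells with Il7r, 14 of 15 had Ncr1 and 4 of 15 had Gzma. Ncr1, Klrb1c, Eomes, Gzma and Prf1 helped to choose the NK cells and to keep the other cells outside the rule. Gata3, Rora, Il1rl1 and Areg are on the list that chose the ILC2 group. The shares of these genes there are a description only.

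Outside the rule, 70 cells of the library with Il7r had none of the excluded genes and no UMI of Trac, which was asked for here in addition. Of these, 15 (0.138% of the library, 0.0772 to 0.227%, median 5654 UMIs) had at least 2 genes of a list of type 2 innate lymphoid cells (ILC2). Gata3 was found in 13 (683 CPM), Il1rl1, the IL-33 receptor gene, in 12, Icos in 10 and Areg in 5. These genes, like Il5 and Il13, are on the list that chose the cells, so their presence is a description only. Ncr1, Klrb1c, Gzma, Eomes and Prf1 had no UMI in them. Cd74 was found in 9 of the 15 (2908 CPM), Il5 in 2 and Il13 in none. At least 2 genes of an ILC3 list were found in 34 cells with Il7r, some of them among the 15 above. In all 34, Tmem176a and Tmem176b were 2 of these genes. The 34 cells were led by Tm4sf5, Calca, Cacnb3 and Ccr7, with Cd74 in 27 (11686 CPM). They are called by these genes rather than by a cell type. The ILC2 and ILC3 lists shared 9 cells.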

How the data were processed

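The deposited values are whole-number UMI counts, in 1 sparse matrix per library with genes and barcodes, and were not normalized. The labels name Cell Ranger and mm10 for the processing. The matrix headers carry software version 3.1.0 for the 14 dpi and ActD sham libraries and 3.0.1 for the 3 dpi and standard sham libraries. The design text speaks of Drop-seq, while the labels' protocol and the methods describe 10x libraries. The matrices held 6827, 2439, 10763 and 11631 barcodes with 60412094, 27447471, 125270696 and 129935880 UMIs for sham with standard dissociation, sham with ActD, 3 dpi and 14 dpi, in that order.

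Cells with under 600 genes or over 10% mitochondrial UMIs were left out. Members of the group and the gene lists were chosen with earlier results of these data known. UMIs were summed per cell group and scaled to CPM. Intervals at 95% are Poisson (exact) for sums, conditional binomial (exact) for ratios and Clopper-Pearson for shares, and a count of 0 is given the floor of 3 counts. Cells were thinned at random to 1000 UMIs for shares. Named genes are the listed genes, the 12 highest and the 12 lowest of NK over CD8 T cells and the 8 highest and 8 lowest of the maturation classes, leaving out the rule's genes and sex-linked, mitochondrial, haemoglobin, ribosomal protein, immunoglobulin and T cell receptor segment genes. Doublets were scored with Scrublet in scanpy 1.11.5, and the 947 highest (8.70%) were removed only in an alternative. Python 3.11.15, numpy 2.4.6, scipy 1.17.1, pandas 2.3.3, matplotlib 3.10.9, R 4.3.3 and edgeR 4.0.16 (TMM factors) were used, and the calculation was tested on simulated data. Promoter sequences are those of RefSeq for GRCm38.p6. Alternatives were other cell filters, rules, gene minimums, scalings and thinning, and removal of single cells. Some genes are not reported here.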

Additional observations from a re-analysis of the deposited data

How the results depend on the processing

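No paired analysis was possible because each condition has 1 library, and for the same reason no replicate could be left out. Of the values of the main results under the alternatives run, 95 kept within the limits set and 31 moved. The label for a turn compares signs, which counts and shares cannot change, so its absence among these says nothing. With Klrg1 classes the balance of genes past 2-fold did turn, with 316 higher and 403 lower of 5575 measured. Of the values of single genes, 3877 stayed within theirs, 293 moved and 5 turned direction. In the comparison of maturation classes, with Klrg1 in place of Itgam and Cd27, Hist1h2ab stood at a log2 ratio of 0.65, Rtp4 at -0.95 and Stmn1 at 0.031, and without cycling cells Stmn1 at 0.61 and Hmgb2 at 0.13. Cells of the cluster without Cd3 numbered 328 and cells without Itgam and Klrb1c 107, in place of 182, and the alternatives with the cluster, with Trdc-alone cells, without cycling cells, without cells with Il7r or without single cells, and the shares over all draws, were chosen after seeing the data. The share with Itgam and Klrb1c was 9.89% after thinning. Without thinning, the maturation classes were 35.2% (Itgam alone), 17.6% (Cd27 alone) and 8.24% (both), with Klrg1 in 28.0%, and with thinning to 2000 UMIs 25.6% had Itgam alone and 19.9% Klrg1. In the random draw made with Trdc-alone cells kept, 0% had both, and over all draws 0.473% would, against 0.571% of the 182 cells. Genes higher and lower in NK than in CD8 T cells numbered 624 and 371 at a minimum of 20 UMIs, 74 and 47 at 200, 72 and 34 after thinning, 93 and 78 in male cells and 166 and 100 in female cells. The number higher was 437 with the cells of the cluster and 192 without cells with Itgam. Some genes past 2-fold in the main comparison fell within 2-fold under at least 1 alternative. Among these were Bhlhe40, Klf2, Tbx21, Klrc1, Ctsc, Ltb, Il21r, Cd69, S1pr1, Tcf7, Rora, Ifit3 and Isg20. Between the maturation classes, 86 genes were higher and 37 lower of 1511 at a minimum of 50 UMIs, and 228 and 188 of 3621 with TMM scaling. With Klrg1 classes these counts were 316 and 403 of 5575, where more were lower than higher. The report gives 268 and 158 of 3621. Il7r was found in 2.20% of thinned NK cells. The ILC2 list found 5 cells after thinning, and the ILC3 list 5 with at least 3 genes and 5 after thinning. Under the stricter filter 11 NK cells were found at 3 dpi. With at least 2 UMIs of the sex genes, 81.8% of NK and 80.7% of CD8 T cells were female. Leaving out every cell with a UMI of a myeloid gene left 1 NK cell and 1 CD8 T cell and gave no value.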
